A study of Mus musculus with 4 samples.

Results

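Type 1 conventional dendritic cells (cDC1) of regenerating muscle were chosen by the measured UMIs of 2 surface receptor genes, *Xcr1* and *Clec9a*, in 4 single-cell RNA libraries. A barcode counted as a cDC1 when it held at least 500 genes, under 10% mitochondrial UMIs (unique molecular identifiers, each standing for 1 captured transcript), at least 2 UMIs of *Xcr1* and *Clec9a* together, at least 50 UMIs per 10000 of the class II genes *Cd74*, *H2-Aa*, *H2-Ab1* and *H2-Eb1*, and under 5 UMIs per 10000 of the complement genes *C1qa*, *C1qb* and *C1qc*. Of 17665 barcodes that passed the first 2 limits, 143 were cDC1. The libraries came from the study of the transcription factor BACH1 in muscle regeneration: CD45+ leukocytes were enriched with magnetic beads from tibialis anterior muscles of male C57BL/6J mice aged 8 to 12 weeks, 2 days (dpi2) or 4 days (dpi4) after cardiotoxin injury. Controls were Bach1 fl/fl littermates, and the KO mice carried the same floxed alleles together with Lyz2 Cre, whose promoter is active in myeloid cells and need not act in every dendritic cell. Each group was 1 library (control dpi2, KO dpi2, control dpi4 and KO dpi4), so differences between libraries were not tested and the intervals given for them are 95% exact intervals that cover counting error only.

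Conventional dendritic cells take up antigen in tissues, mature, and carry it to draining lymph nodes to prime T cells. The type 1 lineage depends on the transcription factors IRF8, BATF3 and ID2 and is known for presenting material of dead cells on MHC class I to CD8+ T cells, a process called cross-presentation. XCR1 is the receptor for the chemokine XCL1 made by T and NK cells, and CLEC9A (DNGR-1) binds actin filaments exposed on dying cells. BACH1 is a heme-sensitive repressor of antioxidant and heme-degradation genes, of which *Hmox1*, encoding heme oxygenase 1, is the best known target.

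The 143 cDC1 were split into 23 of 6010 kept barcodes in control dpi2, 19 of 3799 in KO dpi2, 50 of 4323 in control dpi4 and 51 of 3533 in KO dpi4. Both receptor genes were detected in 109 of them, *Xcr1* alone in 13 and *Clec9a* alone in 21. None was among the 654 barcodes taken as doublets, and no cDC1 barcode was shared between libraries, although libraries shared 44 barcodes in all. Those 654 had the highest Scrublet scores of their libraries, their number set in advance at 0.8% per 1000 kept barcodes. Their median depth was 12957, 22686, 14294 and 15866 UMIs in control dpi2, KO dpi2, control dpi4 and KO dpi4, and single cells ranged from 1586 to 37065 UMIs. The receptor genes lie at chr9:123852315-123862029 (*Xcr1*, minus strand) and chr6:129408862-129424763 (*Clec9a*, plus strand) in GRCm38.

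The threshold of 2 receptor UMIs cut through a gradient. There were 23 cDC1 with exactly 2 receptor UMIs and 67 cells outside with 1 UMI that met every other limit. *Irf8*, the lineage's leading transcription factor, was at 1509 counts per 1000000 UMIs (CPM) in cDC1 with 3 or more receptor UMIs, at 1158 CPM in those with 2, at 353 CPM in the cells with 1 and at 116 CPM in those with none. *Naaa*, encoding an acid amidase, followed the same order with 1221, 928, 281 and 149 CPM. *Cd209a*, which marks another dendritic cell type, was at 24.9 CPM above the threshold, 283 CPM at it and 608 CPM just below. *Siglech*, a plasmacytoid dendritic cell gene, was also concentrated at the threshold, with 253 CPM in the cells with 2 receptor UMIs against 20.6 CPM in those with more. Cells just inside the threshold therefore had mixed marker levels. Over all 143 cDC1, 12 held 2 or more *Siglech* UMIs, 5 of them just inside the threshold, and 11 held 2 or more *Cd209a* UMIs.

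cDC1 made up a larger share of the leukocytes at dpi4 than at dpi2. The share was 0.383% (0.243 to 0.574) in control dpi2, 0.500% (0.301 to 0.780) in KO dpi2, 1.16% (0.860 to 1.52) in control dpi4 and 1.44% (1.08 to 1.89) in KO dpi4. The dpi4 share exceeded the dpi2 share by 0.774 percentage points (0.421 to 1.17) in controls and by 0.943 points (0.482 to 1.44) in KO libraries. Between KO and control the interval of the difference included 0 at both times, at 0.117 points (-0.158 to 0.430) at dpi2 and 0.287 points (-0.231 to 0.826) at dpi4. *Cd209a* dendritic cells, which met the same limits with at least 2 *Cd209a* UMIs and under 2 receptor UMIs, made up 3.04%, 3.53%, 3.03% and 4.61% of the 4 libraries in the same order. Another class, called *Ccr7* *Fscn1* dendritic cells after 2 genes of migration to lymph nodes, met the same limits with at least 2 UMIs of these genes together, under 2 receptor UMIs and under 2 *Cd209a* UMIs, and was at 0.349% and 0.526% at dpi2 and at 0.925% and 1.59% at dpi4 (21, 20, 40 and 56 cells). A further 17, 15, 10 and 15 cells with at least 2 UMIs of *Ccr7* and *Fscn1* were counted as *Cd209a* cells.

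**Figure D1:**
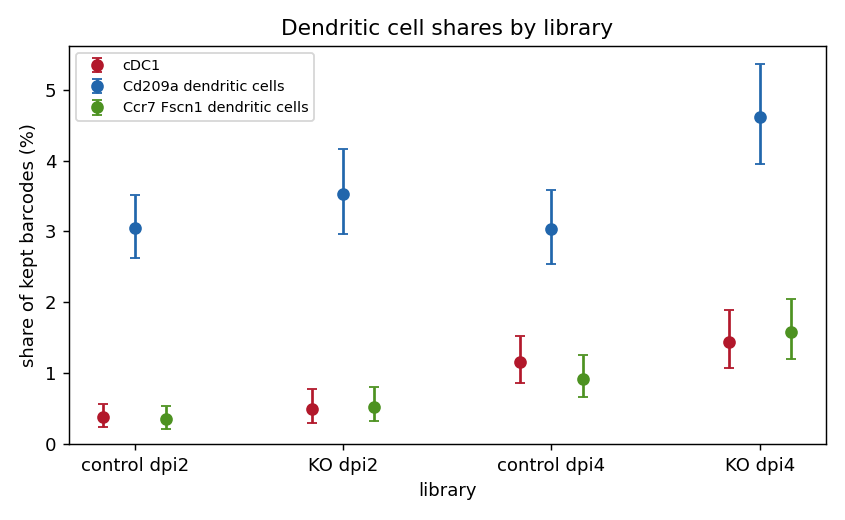
Shares of kept barcodes (%, y axis) in each library (x axis) for cDC1, *Cd209a* dendritic cells and *Ccr7* *Fscn1* dendritic cells, with points for the share and bars for its 95% exact binomial interval. The cDC1 share was 0.383% and 0.500% at dpi2 against 1.16% and 1.44% at dpi4, and its 2 dpi4 intervals lay above the 2 dpi2 intervals.

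The rise from dpi2 to dpi4 depended on how the complement genes were handled. C1q UMIs, which mark macrophages, were more widespread at dpi4: 6 of 26 T cells (23.1%) in control dpi4 and 6 of 32 (18.8%) in KO dpi4 had no C1q UMI, against 27 of 29 (93.1%) and 12 of 15 (80.0%) at dpi2. Among cDC1, 15 of 23, 11 of 19, 3 of 50 and 13 of 51 had none. Had cDC1 been required to hold no C1q UMI, the dpi4 minus dpi2 difference in controls would have been -0.180 points (-0.351 to -0.00749) in place of 0.774. With that requirement the KO minus control difference at dpi4 became 0.299 points (0.0811 to 0.565). What part of the complement signal in cDC1 came from free RNA was not tested.

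The label was checked against genes that the rule did not use. In place of a test between libraries, cDC1 were compared with the *Cd209a* dendritic cells and with the *Ccr7* *Fscn1* dendritic cells of the same 4 libraries, using UMI counts summed per cell type and library and edgeR's quasi-likelihood test with library as a block. Against *Cd209a* cells, 968 of 7515 genes were higher in cDC1 (12.9%) and 1143 were lower (15.2%) at a Benjamini-Hochberg adjusted p under 0.05. Of the type 1 markers, 15 of 15 were among the higher genes, with a median log2 fold change of 3.01 beside 0.01 over all genes tested. Of the type 2 dendritic cell markers, 7 of 7 were among the lower, with a median of -3.28.

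Among the lineage transcription factors, *Irf8* (chr8:120736358-120756694, plus strand) was at 1400, 1148, 1488 and 1647 CPM in cDC1 of control dpi2, KO dpi2, control dpi4 and KO dpi4. The same gene was at 51.3, 44.6, 68.9 and 135 CPM in *Cd209a* cells of those libraries. Every cDC1 value thus lay far above every *Cd209a* value, and the log2 fold change was 4.34 ± 0.18 (SE, n = 4 libraries, adjusted p = 5.6e-08 by edgeR). *Id2*, an inhibitor of E-protein factors, was higher by 3.08 ± 0.12 on the log2 scale, and *Batf3*, the partner of IRF8 at many enhancers, by 2.12 ± 0.24. *Zbtb46*, common to conventional dendritic cells, was higher by 0.77 ± 0.22 (not past the threshold with DESeq2) and *Flt3*, the receptor for the growth factor of dendritic cells, by 0.69 ± 0.14.

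*Gcsam*, a signalling adaptor first described in germinal center B cells, had 183 UMIs in cDC1 and 1 UMI in *Cd209a* cells, a CPM ratio of 615 (109 to 24423). *Sema4f*, a semaphorin, had 59 UMIs in cDC1 and none in *Cd209a* cells, and was at least 66.1-fold higher with the floor set at 3 counts over the group. *Snx22*, a sorting nexin, was at 60.3, 73.8, 77.1 and 94.1 CPM in cDC1 and between 0 and 2.14 CPM in *Cd209a* cells. *Itgae*, the alpha E integrin (CD103), was at 73.4, 138, 74.4 and 118 CPM against 1.75, 0.446, 9.18 and 5.89 CPM. *Tlr3*, the endosomal receptor for double-stranded RNA, was higher by 4.54 ± 0.23 and *Ly75*, the endocytic receptor DEC-205, by 4.83 ± 0.35 on the log2 scale. *Cxcr3*, a chemokine receptor for interferon-induced ligands, had 19, 16, 33 and 56 UMIs in cDC1 of the 4 libraries, 2, 1, 3 and 13 in *Cd209a* cells, and none in *Ccr7* *Fscn1* cells.

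**Figure D2:**
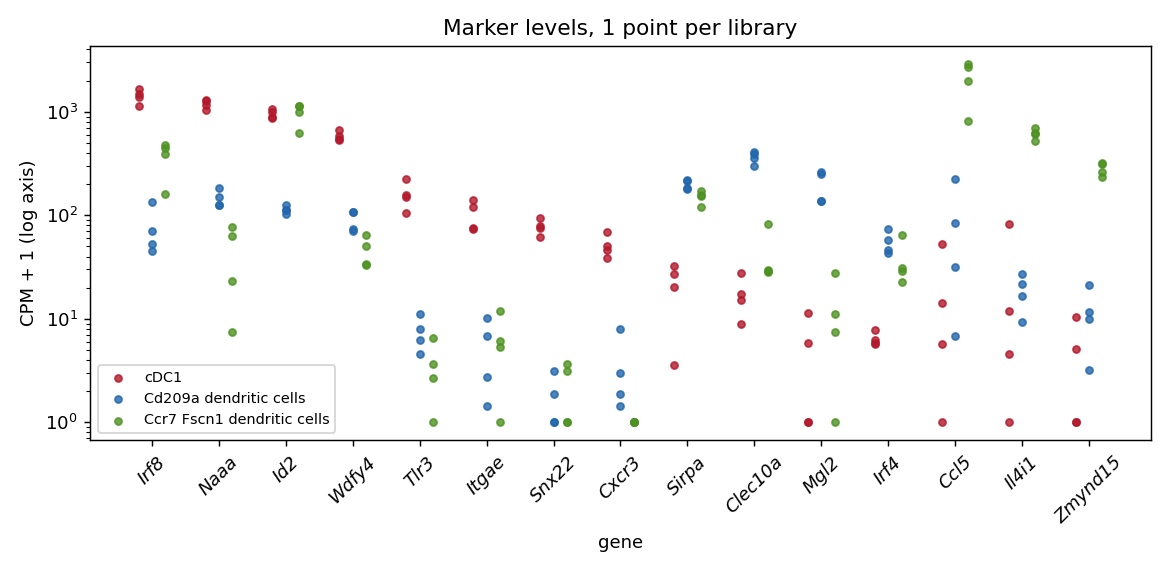
Levels of 15 marker genes (x axis) as CPM + 1 on a log axis (y axis) in cDC1, *Cd209a* dendritic cells and *Ccr7* *Fscn1* dendritic cells, with 1 point per library. *Irf8* lay between 1148 and 1647 CPM in cDC1 and between 44.6 and 135 CPM in *Cd209a* cells, whereas *Sirpa*, *Clec10a* and *Mgl2* were lower in cDC1.

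The type 2 genes were lower, though not absent. *Mgl2*, a galactose-binding lectin, was at 10.5, 0, 0 and 4.83 CPM in cDC1 and at 137, 135, 252 and 260 CPM in *Cd209a* cells. *Sirpa*, the receptor for CD47, was lower in cDC1 by a log2 fold change of -3.28 ± 0.26, *Clec10a*, another galactose lectin, of -4.40 ± 0.19 and *Irf4*, the factor of type 2 cells, of -3.26 ± 0.27. *Zeb2*, a repressor of the type 1 fate, stood at -3.32 ± 0.25. The macrophage marker list, C1q genes included, summed to 252, 193, 1723 and 568 CPM in cDC1 and to 867, 740, 1664 and 956 CPM in *Cd209a* cells, with *Mertk* and *Adgre1* at 0 in cDC1 of control dpi2 and *Mertk* at 0 in both KO libraries.

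Genes of the class I pathway were found on both sides. Relative to *Cd209a* cells, 6 of 13 class I pathway genes were higher and 3 were lower, beside 12.9% and 15.2% of all genes. The immunoproteasome subunit gene *Psmb9* was at 548, 538, 504 and 588 CPM in cDC1 and at 214, 170, 163 and 215 CPM in *Cd209a* cells, a log2 fold change of 1.51 ± 0.11 (adjusted p = 2.2e-06, edgeR). *Psme1* and *Psme2*, the proteasome activator, and *Tap1* and *Tap2*, the peptide transporter, were higher by 1.23 ± 0.10, 0.99 ± 0.12, 0.70 ± 0.16 and 1.26 ± 0.16. The heavy chain genes *H2-K1* and *H2-D1* and the light chain gene *B2m* were lower, at -0.62 ± 0.11, -0.53 ± 0.09 and -0.59 ± 0.10. The immunoproteasome gene *Psmb10* (-0.0059 ± 0.12), *Tapbp* of the peptide-loading complex (0.17 ± 0.16), the trimming peptidase gene *Erap1* (-0.72 ± 0.26) and *Nlrc5*, the class I transactivator (0.51 ± 0.31), did not pass.

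Of 7 cross-presentation genes that the rule did not use, *Wdfy4* and *Rab43* were higher in cDC1 and *Cybb*, *Cyba* and *Rac2* were lower. Over all genes 12.9% were higher and 15.2% lower. *Wdfy4*, which is required for cross-presentation of cell-associated antigen, was at 535, 545, 581 and 663 CPM against 72.4, 70.0, 108 and 106 CPM in *Cd209a* cells. *Cybb*, the catalytic subunit of the phagosomal NADPH oxidase, was at 49.8, 31.0, 131 and 84.5 CPM against 563, 340, 860 and 713 CPM, with a log2 fold change of -3.10 ± 0.14. Of 7 class II pathway genes outside the rule, none was higher and *Ctss*, *H2-DMb2* and *H2-Oa* were lower, *Ctss*, the protease that trims the invariant chain, by -1.40 ± 0.11. At an unadjusted p under 0.05 in edgeR, and with DESeq2, 0 class II genes were higher. In a list of 7 that is near the 12.9% over all genes.

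Proliferation genes were higher in cDC1 and inflammatory genes lower. Of 14 cell cycle genes, 13 were higher than in *Cd209a* cells, beside 12.9% of all genes, with a median log2 fold change of 1.58. *Mki67*, a marker of cycling cells, was at 312, 131, 168 and 308 CPM in cDC1 and 78.5, 64.6, 35.4 and 72.2 CPM in *Cd209a* cells, so that the groups did not overlap (1.85 ± 0.18, adjusted p = 2.0e-05, edgeR). With no C1q UMI allowed in either cell type, *Mki67* was at 0.95 and did not pass. *Rrm2*, a ribonucleotide reductase subunit, was higher by 2.42 ± 0.46 and *Stmn1*, a microtubule regulator, by 2.01 ± 0.27.

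Of 12 inflammation genes, 12 were lower in cDC1, with a median of -2.79. Over all genes 12.9% were higher and 15.2% lower. *Tnf* was at 5.24, 4.76, 8.27 and 8.45 CPM against 92.1, 138, 137 and 95.8 CPM. *Ptgs2*, the inducible cyclooxygenase, was lower by -3.89 ± 0.48, *Cd14*, a lipopolysaccharide co-receptor, by -3.60 ± 0.23 and *Il1b* by -1.18 ± 0.10. Of 16 heme, iron and redox genes tested, 11 were lower and none was higher (0 at an unadjusted p under 0.05 in edgeR and 0 with DESeq2), with *Fth1*, the ferritin heavy chain, at -1.52 ± 0.08, *Slc7a11*, the cystine transporter, at -1.97 ± 0.36 and *Hmox1* at -1.39 ± 0.21.

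Interferon-stimulated genes did not move as 1 group between the cell types. Of 24, 4 were higher in cDC1, among them *Ifi205* and *Ifi44*, and 9 were lower. Over all genes 12.9% were higher and 15.2% lower, so 4 of 24 higher is near the share over all genes. *Ifi205*, a member of the AIM2-like family, was higher by 3.18 ± 0.25, whereas *Rtp4*, *Ifit1* and *Oasl2*, antiviral effectors, were lower by -3.61 ± 0.28, -2.80 ± 0.56 and -2.41 ± 0.24. Of 10 costimulation and cytokine genes, *Il18* was higher (1.18 ± 0.20) and 6 were lower, including *Tnfsf9*, the 4-1BB ligand (-3.86 ± 0.32), and *Cd80* (-2.10 ± 0.32). The 1 of 10 higher is also near the share over all genes.

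**Figure D3:**
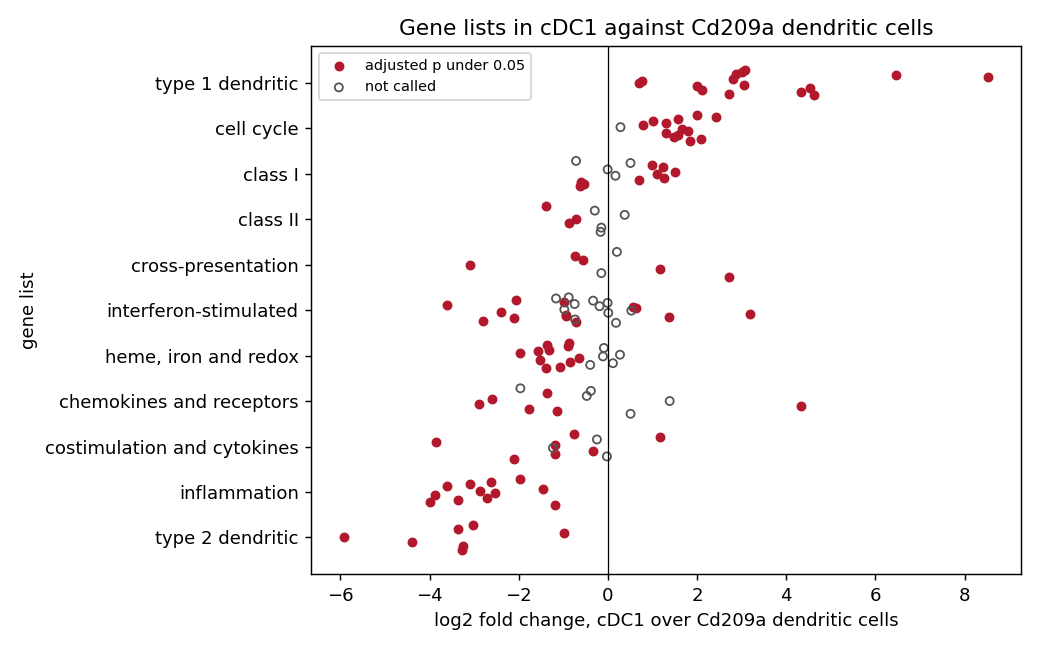
Log2 fold change of each gene (x axis) in cDC1 over *Cd209a* dendritic cells by gene list (y axis), with filled points for an adjusted p under 0.05 in edgeR's quasi-likelihood test and open points for the rest. The 15 type 1 markers lay to the right of 0, 13 of 14 cell cycle genes were higher, and the 12 inflammation genes and 7 type 2 markers lay to the left.

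Against *Ccr7* *Fscn1* dendritic cells, 640 of 4930 genes were higher in cDC1 (13%) and 790 were lower (16.0%). Of 15 type 1 markers, 12 were higher. *Naaa* was higher by 5.02 ± 0.42 and *Tlr3* by 6.09 ± 0.43 on the log2 scale, but *Id2* (-0.09 ± 0.19), *Zbtb46* (-0.37 ± 0.23) and *Flt3* (0.35 ± 0.18) did not pass. Of 8 maturation genes tested, 8 were lower, led by the T cell attractant *Ccl5* (-7.14 ± 0.49) and by *Zmynd15* (-6.50 ± 0.55). *Il2ra*, the interleukin 2 receptor alpha chain, and *Fabp5*, a fatty acid carrier, were lower by -6.76 ± 0.35 and -5.83 ± 0.44. Of 12 cell cycle genes tested, 4 were higher and none lower, with a median of 1.32 and *Mki67* at 1.66 ± 0.58 (adjusted p = 0.066, edgeR).

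States among the cDC1 were counted with small marker sets. Cells with at least 2 UMIs of *Mki67*, *Top2a*, *Cdk1* and *Birc5* together numbered 9 of 23 (39.1%), 5 of 19 (26.3%), 13 of 50 (26.0%) and 16 of 51 (31.4%) in control dpi2, KO dpi2, control dpi4 and KO dpi4. After each cell was thinned to 2000 UMIs, which left out 1 cDC1 in each KO library, the shares were 17.4%, 11.1%, 14.0% and 22%. In *Cd209a* cells they were 13.7%, 15.7%, 6.87% and 11% before thinning and 6.56%, 3.73%, 0.763% and 3.07% after. The cDC1 share thus exceeded the *Cd209a* share in each of the 4 libraries on both scales. A mature state, with at least 2 UMIs of *Ccr7* and *Fscn1* together, was seen in 1, 2, 2 and 1 cDC1.

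The levels of cDC1 genes were then compared between dpi2 and dpi4. A gene passed the rule of size between 2 libraries when its CPM differed at least 2-fold, with a 95% interval of the ratio clear of 1 and 20 or more UMIs over both libraries. By that rule 217 of 5516 genes were higher (3.93%) and 216 lower (3.92%) at dpi4 in controls. In KO libraries 359 of 5799 were higher (6.19%) and 208 lower (3.59%). These comparisons share no library, and 42 genes were higher in both, 23 lower in both and 34 moved in opposite directions, of 5239 scored in both. For each gene, the cell with most UMIs was also left out, only from the library where the gene was higher. This can only shrink or turn a ratio. With that, 52.5% of the higher and 24.1% of the lower genes still passed in controls and 59.6% and 29.8% in KO libraries. With no C1q UMI, which left 3 cDC1 in control dpi4, 3.69% of the higher genes still passed in controls and 18.1% in KO libraries.

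*Cadm1* (chr9:47530173-47857637, plus strand), an adhesion molecule of type 1 dendritic cells, was at 34.1 CPM in control dpi2 and 138 CPM in control dpi4, and at 28.6 and 170 CPM in the KO libraries. The log2 ratios were 2.01 (1.18 to 2.97) and 2.57 (1.72 to 3.56). T cells, read as background, had no *Cadm1* UMI in any library, although macrophages had 13.3, 11.7, 32.4 and 38.9 CPM. *Havcr2*, encoding the inhibitory receptor TIM-3, was at 102 and 258 CPM in controls and 97.6 and 233 CPM in KO libraries, log2 ratios of 1.33 (0.83 to 1.87) and 1.25 (0.76 to 1.78).

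*Abcg1*, a cholesterol exporter, was higher by 2.44 (1.24 to 3.94) and 2.87 (1.58 to 4.53) on the log2 scale. *Cd36*, a scavenger receptor, was at 31.5 and 9.52 CPM at dpi2 and at 66.1 and 71.2 CPM at dpi4, with the larger ratio in KO libraries, and *H2-Q7*, a nonclassical class I gene, went from 55.1 and 42.9 CPM to 123 and 211 CPM. Macrophage markers rose in the same cDC1, with median log2 ratios of 1.57 in controls (3 scored) and 1.47 in KO libraries (2 scored). Their part in the *Abcg1* and *Cd36* differences was not tested. The immediate-early factors *Egr1* and *Fosb* were also higher, *Egr1* by 2.77 (1.93 to 3.76) and 2.69 (1.90 to 3.59). *Egr1* was higher at dpi4 in *Cd209a* cells too, at 911 and 764 CPM against 280 and 226 CPM.

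Other cell types carried some of the same differences. *Apoe*, an abundant macrophage apolipoprotein, was at 86.5, 64.3, 1327 and 301 CPM in cDC1 of control dpi2, KO dpi2, control dpi4 and KO dpi4, and 312 of the 963 UMIs in control dpi4 came from 1 cell. In T cells, which should lack it, *Apoe* was at 336, 72.9, 916 and 496 CPM. The part of free RNA in the *Apoe* difference was not tested.

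Among the 23 genes lower in both, *Mcm3*, a subunit of the replicative helicase, was at 134 and 107 CPM at dpi2 and had 45.5 and 35 CPM by dpi4, which gave log2 ratios of -1.56 (-2.23 to -0.90) and -1.61 (-2.34 to -0.91). In KO libraries 20 of the 45 *Mcm3* UMIs at dpi2 were in 1 cell, and without that cell the ratio was -0.77 and no longer past the rule. *Ccnd2*, a G1 cyclin, and *S100a4*, a calcium-binding protein, were lower by -3.31 (-5.04 to -1.90) and -2.04 (-2.47 to -1.62) in controls. *S100a4* rested on few cells, and in cDC1 with both receptor genes its control ratio was 0.49.

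Before the genotypes were compared, the targeted gene was read in every library. *Bach1* (chr16:87698945-87733346, plus strand) was at 89.1 CPM in control dpi2, 90.5 CPM in KO dpi2, 99.2 CPM in control dpi4 and 115 CPM in KO dpi4. The KO values were not lower, with log2 ratios of 0.02 (-0.68 to 0.73) and 0.21 (-0.25 to 0.67). Counts of 3' ends need not fall when an inner exon is removed, so *Bach1* did not check the labels in these cells. *Lyz2*, whose locus carries the Cre, was at 530, 2.38, 1170 and 16.9 CPM in the same order and separated the libraries by genotype, as it did in macrophages (8563, 12.8, 17630 and 23.6 CPM). In T cells, read as background, *Lyz2* was at 3529, 36.5, 562 and 0 CPM, above the cDC1 level in both dpi2 libraries and below it at dpi4, and the cDC1 level at dpi2 is not read as expression by the cells.

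*Hmox1* (chr8:75093621-75100589, plus strand) was higher in cDC1 of the libraries labelled KO at both times. Its level was 10.5 CPM (4 UMIs) in control dpi2, 110 CPM (46 UMIs) in KO dpi2, 17.9 CPM (13 UMIs) in control dpi4 and 101 CPM (84 UMIs) in KO dpi4. The log2 ratios of KO over control were 3.38 (1.93 to 5.32) and 2.50 (1.65 to 3.47), and no single cell held more than 7 of the UMIs. *Hmox1* in T cells of the same libraries was at 18.0, 766, 18.1 and 243 CPM, above the cDC1 level in both KO libraries. After thinning to 2000 UMIs, 15 of 50 cDC1 (30.0%) and 19 of 31 T cells (61.3%) of KO dpi4 held an *Hmox1* UMI, at unthinned shares of 78.4% and 71.9% and median depths of 15866 and 4721.5 UMIs. In KO dpi2 the thinned shares were 1 of 18 cDC1 (5.56%) and 3 of 15 T cells (20%), and the unthinned shares 73.7% and 66.7%. At equal depth the cDC1 shares were below those of T cells and are not read as expression by the cells.

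**Figure D4:**
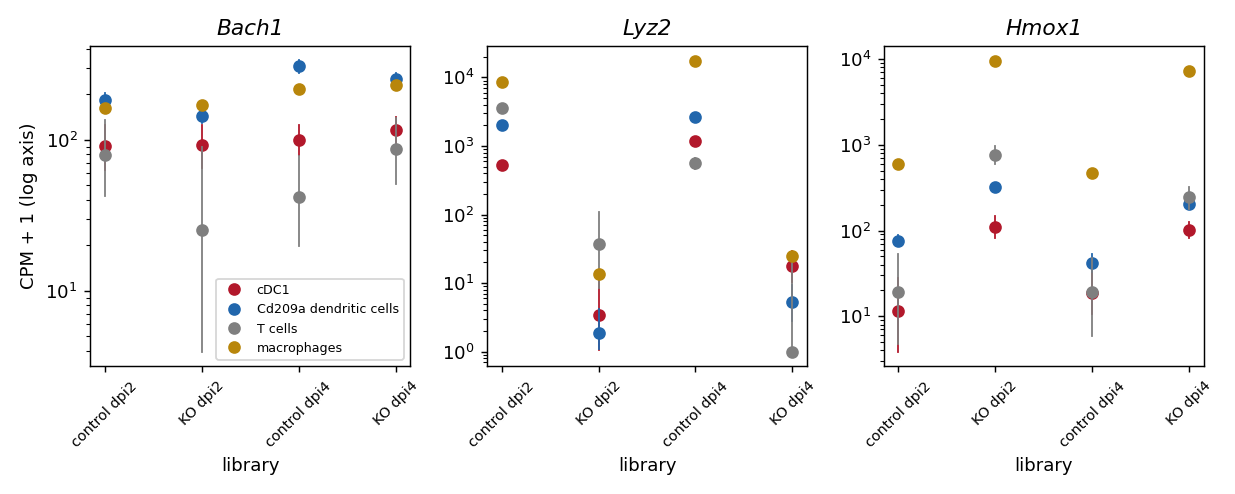
CPM + 1 on a log axis (y axis) of *Bach1*, *Lyz2* and *Hmox1* in each library (x axis), for cDC1, *Cd209a* dendritic cells, T cells and macrophages, with bars for 95% exact Poisson intervals. *Hmox1* in cDC1 was at 10.5 and 17.9 CPM in control libraries and at 110 and 101 CPM in KO libraries, below the T cell values of 766 and 243 CPM in the latter.

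Between genotypes, 168 of 4564 genes were higher (3.68%) and 206 lower (4.51%) in KO dpi2 cDC1. At dpi4, 163 of 6410 were higher (2.54%) and 141 lower (2.20%). Many of these differences depended on 1 cell. The cell with most UMIs of each gene was left out, only from the library where that gene was higher. With that, 43 genes were higher and 69 lower at dpi2, and 73 higher and 65 lower at dpi4. Since such a removal can only shrink or turn a ratio, part of that loss is built in. Of 4518 genes scored at both times, 5 were higher at both (*Cd7*, *Hmox1*, *Ifitm1*, *Plscr1* and *Tnfsf9*), 6 were lower at both (*Ctsl*, *Cyp51*, *Ifit3*, *Ly6c2*, *Lyz2* and *Siglech*) and 33 passed in opposite directions. Of those 11, *Hmox1* and *Lyz2* still passed at both times without the top cells, and both genes also passed in the same directions in T cells.

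The same rule gave the background for the other cell types of these libraries. Of all genes scored in *Cd209a* cells, 2.16% were higher and 2.40% lower in KO at dpi2, and 2.71% and 1.63% at dpi4. *Ccr7* *Fscn1* cells had 6.68% of genes higher and 5.33% lower at dpi2, against 3.76% higher and 2.04% lower at dpi4. Macrophages had 2.83% higher and 3.43% lower at dpi2 and 1.32% and 4.78% at dpi4, and T cells 4.28% and 7.05% at dpi2 and 7.45% and 6.91% at dpi4.

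The markers of cDC1 identity did not pass the rule between genotypes. Of 15 type 1 markers, none passed at dpi2 or dpi4, with median log2 ratios of -0.10 and 0.19. Over all genes 3.68% were higher and 4.51% lower at dpi2, and 2.54% and 2.20% at dpi4. A count of 0 in lists this short is near those shares. *Itgae* was at 73.4 CPM in control and 138 CPM in KO at dpi2, and at 74.4 and 118 CPM at dpi4. None of the class I genes passed at either time, of 11 scored at dpi2 and 13 at dpi4. Of the class II genes, *H2-DMb2*, part of the peptide-loading chaperone, was at 36.7 CPM (14 UMIs) in control dpi2 and 90.5 CPM (38 UMIs) in KO dpi2, a log2 ratio of 1.30 (0.38 to 2.30), and none passed at dpi4.

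Of the heme, iron and redox genes, 3 of 11 scored were higher at dpi2 (*Hmox1*, *Gclc* and *Txnrd1*), 2 of 12 at dpi4 (*Hmox1* and *G6pdx*), and none was lower at either time, beside 3.68% and 2.54% of all genes that were higher. *Hmox1* is in both counts, although its level in cDC1 is not read as expression by the cells. Some genes of the list also passed as higher elsewhere. In macrophages 9 of 20 and 8 of 20 scored did at dpi2 and dpi4 (beside 2.83% and 1.32% of all their genes). In *Ccr7* *Fscn1* cells 9 of 14 and 1 of 14 did (6.68% and 3.76%). *Cd209a* cells had 3 of 17 and 2 of 17 (2.16% and 2.71%), and T cells 3 of 8 and 1 of 6 (4.28% and 7.45%). None was lower in any of them. The dpi4 counts in *Ccr7* *Fscn1* cells and T cells are 1 gene each. *G6pdx*, the first enzyme of the pentose phosphate pathway, had 3 UMIs in control dpi4 and 24 in KO dpi4, spread over 20 cells, a log2 ratio of 2.81 (1.09 to 5.18). At dpi2 it had 6 UMIs in control and 2 in KO. For *Gclc*, the catalytic subunit of glutathione synthesis, 70 of the 73 UMIs in KO dpi2 were in 1 cell.

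At dpi4, 11 of 20 scored interferon-stimulated genes were lower in the library labelled KO and none was higher, with a median log2 ratio of -1 beside 0.00 over all genes. Over all genes 2.20% were lower and 2.54% higher. *Ifit1*, an antiviral RNA-binding protein, had 28 UMIs in control dpi4 and none in KO dpi4, a log2 ratio of at most -3.41 with the floor at 3 counts in the KO library. *Ifit2* was at 175 CPM in control and 12.1 CPM in KO, a log2 ratio of -3.86 (-4.95 to -2.93). *Ifit3* was at 41.3 and 4.83 CPM and *Rsad2*, encoding viperin, at 139 and 24.1 CPM, log2 ratios of -3.10 (-5.06 to -1.59) and -2.53 (-3.30 to -1.82). In control dpi4, 1 cell held 15 of the 28 *Ifit1* UMIs, 51 of the 127 *Ifit2* UMIs were in 1 cell and 44 of the 101 *Rsad2* UMIs were in 1 cell. *Isg15*, a ubiquitin-like modifier, was at 247 and 123 CPM, at -1 (-1.37 to -0.64). The remaining genes that were lower were *Ifi47*, *Ifi204*, *Oasl1*, *Mx1*, *Usp18* and *Cmpk2*, whereas *Irf7* and *Bst2* were among those that did not pass.

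A few cells carried that difference. In control dpi4, 5 of 50 cDC1 held 48.4% of the UMIs of the list and 1 cell held 15.3%, against 23.5% in the top 5 cells of KO dpi4. The per-cell level of the list had a median of 11.2 UMIs per 10000 in control dpi4 and 13.2 in KO dpi4, and a maximum of 226 and 73.9. The medians were thus close while the tails differed. Without the 5 cells with most UMIs of the list in each library, 4 of 16 genes were lower and the median was -0.18. In the 3 control and 13 KO cells with no C1q UMI, none of 6 scored genes was lower and 5 were higher. In other cells at dpi4, 0 of 24 genes of the list were lower and 2 higher in *Cd209a* cells (median -0.11), beside 1.63% and 2.71% of all their genes. In *Ccr7* *Fscn1* cells 8 of 22 were higher (median 0.60), beside 3.76%, and in macrophages 0 of 24 passed in either direction (median -0.06). In T cells 1 of 12 was lower (median -0.06), a share near the 6.91% over all their genes. It was *Ifit1*, with 27 and 8 UMIs at 122 and 40.5 CPM, above the 38.6 and 0 CPM of cDC1. The *Ifit1* difference in cDC1, 1 of the 11 at dpi4, is therefore not read as expression by the cells. Macrophage markers moved with the list in cDC1: *Apoe* and *Fcgr1* were lower in KO dpi4, none of 5 scored had a ratio above 1 and their median was -1.02. Their part in the result was not tested.

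At dpi2, 1 of 17 scored interferon-stimulated genes was higher in KO cDC1 (*Ifit2*, with 4 UMIs in control and 25 in KO) and 1 lower (*Ifit3*), while 3 of 17 had a ratio above 1 and the median was -0.55. Over all cDC1 genes 3.68% were higher and 4.51% lower at dpi2, so 1 of 17 is near those shares. In the other cell types more of the list was lower at dpi2: 19 of 24 in *Cd209a* cells (median -1.40, beside 2.40% of all their genes), 22 of 24 in macrophages (-1.34, beside 3.43%), 13 of 20 in *Ccr7* *Fscn1* cells (-1.24, beside 5.33%, with 1 higher) and 4 of 11 in T cells (-0.52, beside 7.05%). Whether the genotype differences of the cell types differ from each other was not tested.

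Proximal promoters are shown for the 4 interferon-list genes lower at dpi4 whose promoter held the letters of the element that interferon-activated factors are known to bind. The 250 bases before the start site (RefSeq, GRCm38.p6) were searched on both strands for the letters GAAANNGAA, a core of the interferon-stimulated response element, which were found in 10 of 18 promoters of the interferon list (55.6%), in 4 of the 8 genes with a promoter that were lower at dpi4 (50%), in 1 of 13 type 1 marker promoters (7.69%), and in 8.18% of 27025 promoters. Capitals mark the matches, which read as the reverse complement where the element lies on the opposite strand, and each sequence is printed in the direction of the gene, at chr4:156200841-156200931 (minus strand) for *Isg15*, chr19:34640745-34640848 (plus strand) for *Ifit1*, chr19:34583339-34583470 (plus strand) for *Ifit3* and chr12:26456528-26456606 (minus strand) for *Rsad2*.
Isg15: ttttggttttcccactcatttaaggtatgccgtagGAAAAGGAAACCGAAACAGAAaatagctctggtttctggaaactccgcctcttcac
Ifit1: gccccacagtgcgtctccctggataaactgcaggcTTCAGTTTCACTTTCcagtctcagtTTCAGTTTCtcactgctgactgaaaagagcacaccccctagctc
Ifit3: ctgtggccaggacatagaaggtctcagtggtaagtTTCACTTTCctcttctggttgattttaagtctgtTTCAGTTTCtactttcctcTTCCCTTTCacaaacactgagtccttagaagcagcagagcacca
Rsad2: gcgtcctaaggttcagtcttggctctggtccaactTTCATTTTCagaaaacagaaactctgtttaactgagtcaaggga
These matches describe the letters only, and no binding was measured here.

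A part of the cell cycle list passed the rule between genotypes at each time. At dpi2, 5 of 13 scored were lower in KO (*Mki67*, *Top2a*, *Cdk1*, *Cenpf* and *Ube2c*), with a median log2 ratio of -0.85, and at dpi4, 5 of 14 were higher (*Top2a*, *Cdk1*, *Birc5*, *Cenpf* and *Ube2c*), with a median of 0.83. Over all cDC1 genes 4.51% were lower at dpi2 and 2.54% higher at dpi4. *Ube2c*, a conjugating enzyme of mitotic exit, was at 233, 33.3, 57.9 and 279 CPM in control dpi2, KO dpi2, control dpi4 and KO dpi4. Its log2 ratios were -2.81 (-3.74 to -1.99) at dpi2 and 2.27 (1.79 to 2.78) at dpi4. *Cenpf*, a kinetochore protein, was at 136, 14.3, 46.8 and 191 CPM, and *Top2a*, the topoisomerase of dividing cells, at 414, 126, 202 and 466 CPM.

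The 5 genes higher at dpi4 also passed without the top cells, but in the cells with no C1q UMI 1 gene of the list was scored and it was lower, with 3 control and 13 KO cells left. At dpi2 the same requirement left 2 of 10 scored genes higher in KO and none lower (median 0.37). Without cells holding markers of other cell types 3 of 10 were higher and 1 lower (median 0.23). The direction of the median thus turned under either limit. The second limit removed 11 of 23 control and 13 of 19 KO cDC1 of dpi2, and 11 of the 19 held at least 2 neutrophil marker UMIs. The list nevertheless lay in few cells, with 78.0%, 92.0%, 60.4% and 46.9% of its UMIs in the top 5 cDC1 of the 4 libraries. Genes of DNA replication, which mark an earlier phase, were not past the rule, with *Mcm3* at -0.32 (-0.93 to 0.29) at dpi2 and -0.38 (-1.15 to 0.39) at dpi4. The share of cycling cDC1 had overlapping intervals between genotypes at both times, at 19.7 to 61.5% and 9.15 to 51.2% at dpi2. In *Cd209a* cells 11 of 13 cell cycle genes were higher in KO dpi4 (median 1.51, beside 2.71% of all their genes) and 2 of 14 were lower at dpi2 (beside 2.40%). In *Ccr7* *Fscn1* cells 5 of 7 were higher at dpi2 (beside 6.68%) and 8 of 10 at dpi4 (beside 3.76%), where 1 was lower. In macrophages 10 of 14 were lower at dpi2 (beside 3.43%) and none passed at dpi4. T cells went the other way at dpi4, with 3 of 7 lower (beside 6.91%), none with a ratio above 1 and a median of -0.93.

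**Figure D5:**
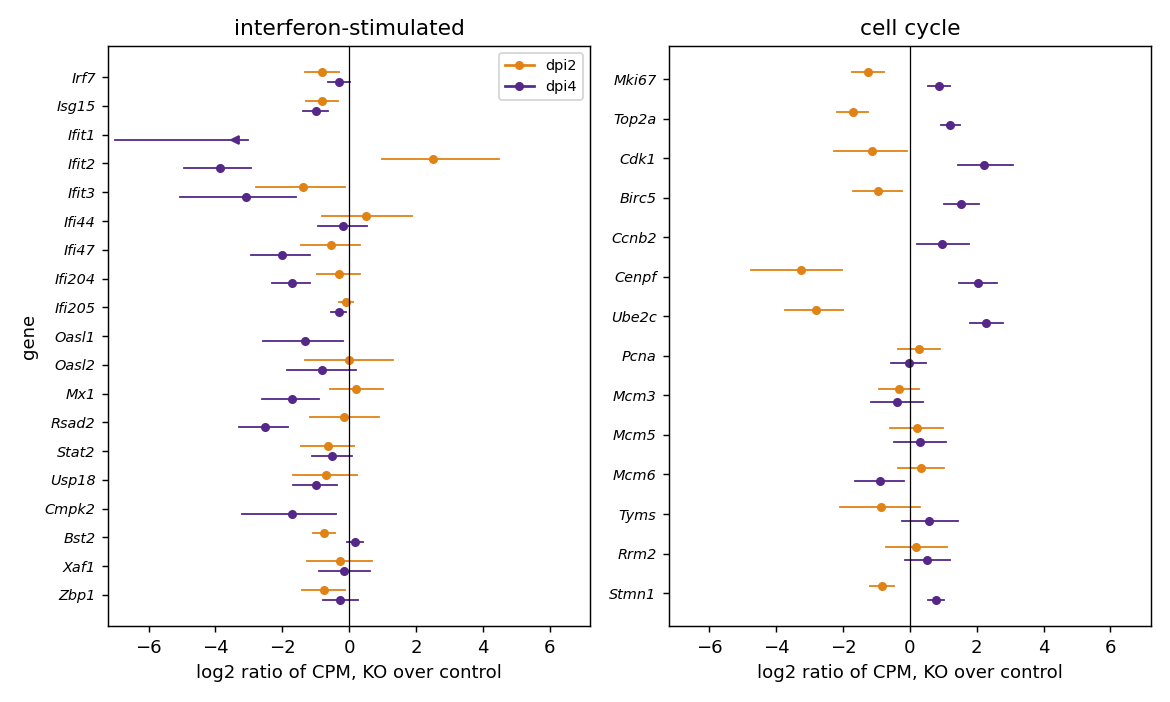
Log2 ratio of CPM in KO over control cDC1 (x axis) for the interferon-stimulated genes reported here (left) and cell cycle genes (right), with points for the ratio at dpi2 and dpi4 and lines for its 95% exact interval. The arrowhead is a bound for *Ifit1*, whose interval is open to the left, and the dpi4 points of *Ifit2*, *Ifit3* and *Rsad2* lay between -3.86 and -2.53 while those of *Ube2c* and *Cenpf* lay at 2.27 and 2.03.

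Several other genotype differences in the lists lay in 1 or 2 cells. *Il12b*, the p40 subunit of interleukin 12, had 112 UMIs in KO dpi2, of which 110 were in 1 cell, and 63 in control dpi4, of which 62 were in 1 cell. *Ccr7* had 207 UMIs in KO dpi2, all in 2 cells. *Tnfsf9* was spread more widely, with 6 and 18 UMIs in control and KO dpi2 and 9 and 61 in control and KO dpi4, the last over 17 cells, log2 ratios of 1.45 (0.05 to 3.07) and 2.57 (1.55 to 3.77). *S100a8*, a neutrophil gene, had 5 UMIs in control dpi2 and 89 in KO dpi2, where 70 lay in 1 cell. Neutrophils numbered 511, 901, 43 and 10 in the 4 libraries, and the part of their RNA in that difference was not tested.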

How the data were processed

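Single-cell 3' RNA libraries of CD45+ cells from 4 groups (1 library each) were used. The authors aligned reads to mm10 with Cell Ranger 6.1.2 (per the labels' processing notes) and deposited filtered matrices of whole UMI counts per gene and barcode. The labels name the v2 chemistry and the methods the v3.1 kit, and that difference was not resolved. The study's own quality filters, doublet calls, integration and cell type names were not used here.

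Barcodes with at least 500 genes and under 10% mitochondrial UMIs were kept, 3533 to 6010 per library, with 56181953 to 77978276 UMIs. The cell type rule, the gene lists (226 genes in 24 lists) and the comparisons were chosen with earlier results of these data known. T cells (at least 2 UMIs of *Cd3d*, *Cd3e* and *Cd3g*), neutrophils (at least 100 UMIs of *S100a8* and *S100a9* per 10000) and macrophages (at least 5 C1q UMIs per 10000) served as background. Barcodes with the highest Scrublet scores, in a number set in advance, were taken as doublets and kept. Of the list genes, *Clec7a* and *Itgam* were not analysed here.

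UMIs were summed per cell type and library. CPM is UMIs per 1000000 of all UMIs of those cells. Shares have Clopper-Pearson intervals, differences of shares Newcombe intervals, CPM exact Poisson intervals and ratios exact conditional binomial intervals, all two-sided at 95%, and all cover counting error only. The floor is 3 counts. Fewer transcripts per cell and fewer cells of a state cannot be told apart in such sums. Cell types were compared with edgeR 4.0.16 (R 4.3.3; TMM, filterByExpr, glmQLFit, glmQLFTest, library as a block), with the genes of either cell type rule left out of the calls; SE is the absolute log2 fold change divided by the square root of F. Cell types were defined by genes that other genes follow, so these p-values describe how stable a difference was over 4 libraries, not how the cells were found. The scripts were tested on simulated counts. Named genes were those of the lists, the 6 highest and 6 lowest ratios of each pair of libraries, the genes past the rule in the same direction at both times or in both genotypes, and the 12 top edgeR genes in each direction, of which the text gives those that bear on cDC1. Gene positions are from GENCODE M21 (GRCm38). The values of 1 gene of the interferon list are not reported here.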

Additional observations from a re-analysis of the deposited data

Results flagged for a closer look

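Of the 33 genes whose KO over control ratio in cDC1 passed the rule of size in opposite directions at dpi2 and dpi4, 8 belong to the gene lists and are given here. The difference between the times was not tested. *Cdk1* had log2 ratios of -1.14 at dpi2 and 2.22 at dpi4, *Cenpf* -3.25 and 2.03, *Top2a* -1.71 and 1.20 and *Ube2c* -2.81 and 2.27. The interferon-stimulated gene *Ifit2* had 2.50 and -3.86, and the chemokine gene *Cxcl10* 1.63 and -5.24. *Cxcl10* was at 13.1, 40.5, 45.5 and 1.21 CPM in cDC1 of control dpi2, KO dpi2, control dpi4 and KO dpi4 and at 234, 24.3, 231 and 10.1 CPM in T cells, above the cDC1 level in all but KO dpi2, so its difference at dpi4 is not read as expression by the cells. *Ccr7* had 5.97 and -2.32 and *Il12b* 5.08 and -2.36, the *Il12b* value at dpi2 being a lower bound because control dpi2 had no UMI. With the top cell on the higher side left out, the ratio of *Il12b* turned at dpi2 and at dpi4. That of *Ccr7* turned at dpi4 and that of *Cxcl10* at dpi2.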

How the results depend on the processing

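Of the alternatives tried for the cDC1 share, requiring no C1q UMI turned the control dpi4 minus dpi2 difference to -0.180 points, left 0.0784 in KO libraries and raised the KO minus control difference at dpi4 to 0.299; a minimum of 1 receptor UMI gave 0.611 for the latter, with an interval above 0. Leaving out cells with markers of other types left 8 cDC1, since *Plac8* was counted as a monocyte marker, and gave 0.0463 and 0.0606 points for dpi4 minus dpi2 in control and KO, with no ratio or edgeR value, so it was repeated without *Plac8* after the data were seen. Genes higher and lower by the rule of size are given in that order. For KO over control at dpi2 (168 and 206), no C1q UMI gave 95 higher (51 of them among the 168), no other markers 84 and 95 (34 and 20 shared), cells with both receptor genes 111 higher (46 shared), a minimum of 50 UMIs 74 and 59, a minimum of 5 UMIs 316 lower, a 1.5-fold limit 384 lower, and leaving out each gene's top cells 43 and 69. At dpi4 (163 and 141), the counts were 54 and 63 with no C1q UMI, of which 2 and 5 were among the 163 and 141, 61 and 45 at 50 UMIs, 217 lower at 5 UMIs, 259 and 242 at 1.5-fold and 73 and 65 without top cells. For dpi4 over dpi2 in controls (217 and 216), they were 55 and 79 with no C1q UMI (8 and 19 shared), 121 lower with no other markers (58 shared), 104 and 103 at 50 UMIs, 328 and 467 at 1.5-fold and 119 and 54 without top cells. In KO libraries (359 and 208), they were 175 higher with no C1q UMI (65 shared), 216 higher with no other markers (90 shared), 189 and 92 at 50 UMIs, 347 lower at 5 UMIs, 552 and 381 at 1.5-fold and 221 and 62 without top cells. The 11 interferon-stimulated genes lower at dpi4 became 0 with no C1q UMI (3 and 13 cells), 6 with no other markers, 7 at 50 UMIs, 7 without top cells and 4 without the 5 top cells of the list. The 5 cell cycle genes lower at dpi2 became 3 with 1 receptor UMI, 0 with no C1q UMI, 1 lower and 3 higher with no other markers (median 0.23 in place of -0.85) and 3 without top cells, while 5 of 5 scored were lower without the 5 top cells (median -2.86), and the 5 higher at dpi4 became 0 with no C1q UMI, 8 at 1.5-fold and 8 without the 5 top cells. Against *Cd209a* cells, no C1q UMI left 280 higher and 436 lower genes, and leaving out 1 library gave 658 to 919 and 865 to 1069; DESeq2 gave 671 and 820, and no library block 655 and 870. Against *Ccr7* *Fscn1* cells, no C1q UMI left 131 and 193, no filter gave 1124 and 1240, and leaving out 1 library gave 308 to 815 and 535 to 1002, with 308 higher without control dpi4 and 338 without KO dpi4. Thinning left cycling shares of 17.4% in control dpi2 and 14.0% in control dpi4, and 0% with a mature state in control dpi2 and KO dpi4, at a depth where 57.9% to 78.9% of *Ccr7* *Fscn1* cells still met that state. Top cells of a gene were left out only from the library where it was higher, which can only shrink or turn its ratio. Without top cells, single ratios of KO over control turned to -0.55 (*Cd7*), -1.46 (*Cxcl10*), 0.28 (*Ifit3*), -0.72 (*Il12b*), 1.45 (*Siglech*), -0.55 (*Slpi*) and -0.061 (*Zeb2*) at dpi2, and to 0.46 (*Ccl5*), 0.22 (*Ccr7*), 0.29 (*Fcgr1*), 3.62 (*Il12b*) and 1.66 (*Ly6c2*) at dpi4. With 1 receptor UMI, *Cxcl10* (-1.32) and *Ifit2* (-0.073) turned at dpi2, *Ccl3* (-0.55) and *Siglech* (0.26) at dpi4 and *Cybb* (-0.27) from dpi2 to dpi4 in controls. With no C1q UMI, *Top2a* (0.14) and *Ube2c* (1.10) turned at dpi2, *Ctsl* (1.20) and *Isg15* (1.15) at dpi4, and *Plac8* (-0.088) and *Rac2* (-0.10) against *Ccr7* *Fscn1* cells. *Mki67* at dpi2 turned to 1.04 with no other markers, *Ly6c2* at dpi4 to 1.14 in cells with both receptor genes, and *S100a4* from dpi2 to dpi4 in controls to 0.25 with 3 receptor UMIs and 0.49 with both genes. The causes were not tested. The libraries hold 19 to 51 cDC1 each, which limits every ratio.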
